A study of Mus musculus with 28 samples.

Results

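Potassium channel genes were taken as every gene symbol of the form Kcn, then letters, then a number, in the count tables of a mouse brain synaptosome study. The rule gave 92 genes of 25239 in the SynSURF table and of 24443 in the sucrose table. Of these, 77 encode pore-forming or pore-modifying subunits and 15 encode auxiliary subunits. Counts in at least 1 library were found for 82 of the 92 genes in the SynSURF table and for 78 in the sucrose table, and 9 were at 0 in every library.

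Synaptosomes are pinched-off nerve terminals, often with a piece of the postsynaptic membrane attached. The libraries compared a crude synaptosome pellet with sorted synaptosomes in 2 preparations, SynSURF, which uses a reversible fixative, and a sucrose gradient. The groups were SynSURF crude (n = 10), SynSURF sorted (n = 10), sucrose crude (n = 3) and sucrose sorted (n = 3). All were mouse brain labelled as primary neurons, with polyA RNA amplified by a whole-transcriptome kit. About 15000000 particles went into a crude pellet in PBS and about 30000000 sorted particles into the reducing agent TCEP, and no label gives strain, age, sex, genotype or treatment. Whether the replicates are separate animals is not stated, and the p-values therefore describe the spread between libraries, which may be technical.

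Total counts were 1035423 to 8897238 per SynSURF crude library, 76520 to 1812759 per SynSURF sorted library, and 1844679 to 6793374 over the 6 sucrose libraries. A count of 0 therefore allows different levels in different libraries. With a floor of 3 counts, it allows up to 5.55 to 57.4 CPM (counts of a gene relative to the TMM-scaled library total) in a SynSURF sorted library (median 27.7), and 0.233 to 2.13 CPM in a SynSURF crude library. Over the 10 sorted libraries pooled, the floor was 2.00 CPM. These floors cover counting error only, since amplified reads are not independent molecules. Neuron markers summed to 1492 to 2658 CPM in SynSURF crude and 1531 to 11123 CPM in SynSURF sorted libraries.

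Potassium channels let potassium leave the cell and bring the membrane back towards rest. Voltage-gated (Kv) channels repolarise the action potential and set its width at axon terminals, Kv7 channels carry the M current, and BK, SLO2 and SK channels open on calcium or sodium. Inward rectifiers (Kir) and 2-pore-domain (K2P) channels hold the resting potential, and Kir channels of glia take up extracellular potassium. Auxiliary subunits such as Kv beta, KChIP, BK beta and KCNE proteins attach to pore subunits and alter their gating or their traffic to the membrane.

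Nearly all pore subunits carry a short selectivity filter whose backbone oxygens bind potassium ions. Its codons are shown for members on which the results turn, from the longest coding sequence of each gene in GENCODE M21 (GRCm38), 5′ to 3′ on the coding strand. The capitals mark the motif searched, in frame: a threonine codon, a codon with T as its middle base (a hydrophobic residue), a glycine codon, a codon that starts with T (tyrosine or phenylalanine in every member with a match) and a glycine codon. The 6 lower-case bases on each side are the flanking codons.
Kcna1 (Kv1): atgaccACTGTGGGATACGGTgacatg
Kcna6 (Kv1): atgaccACGGTAGGTTATGGGgacatg
Kcnb2 (Kv2): atgaccACTGTGGGCTACGGTgacatt
Kcnc2 (Kv3): atgactACCTTAGGTTACGGGgatatg
Kcnd2 (Kv4): atgacaACACTGGGGTATGGCgacatg
Kcnd3 (Kv4): atgactACACTGGGATATGGAgacatg
Kcns2 (modifier): atgaccACAGTTGGGTACGGAgatgtg
Kcnma1 (BK): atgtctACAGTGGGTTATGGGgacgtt
Kcnj10 (Kir): cagaccACCATCGGCTATGGCttccgc
Kcnk3 (K2P), first: atcaccACCATCGGCTATGGTcatgcg
Kcnk3 (K2P), second: ctcaccACCATCGGCTTCGGCgactat
The genes that fell in SynSURF sorted libraries (Kcnb2, Kcnc2, Kcnd3) and genes that did not pass the test (Kcna1, Kcnj10) carry the same filter pattern. Searched in frame on the coding strand alone, the motif was present in 64 of the 77 pore and modifier genes and in 0 of the 15 auxiliary genes, against 0.858% of all 21794 coding sequences. It occurred at 2 places in 11 of the 14 K2P genes, which encode 2 pore loops in 1 protein, and in no other member. The match is a description of these letters, and genes without it were not examined further.

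The order of channel genes in crude synaptosomes was compared per length with the TPM that the authors deposited, which scale counts by transcript length and library size. The SynSURF crude order was led by Kcnma1, the pore of the BK channel, at 454 ± 193 TPM (SD, n = 10). It was followed by Kcnd2, a Kv4 pore of the dendritic A-type current, at 283 ± 161 TPM. The Kv beta genes Kcnab1 and Kcnab2, whose proteins bind the cytoplasmic side of Kv1 channels, came next at 236 ± 69.0 and 235 ± 139 TPM. Then came Kcnt1, a sodium-activated pore, at 164 ± 77.9 TPM, Kcnj10, the main inward rectifier of astrocytes, at 159 ± 58.8 TPM, and Kcnip1, a KChIP of Kv4 channels, at 143 ± 46.5 TPM. Neighbours in this order differed by less than the larger of their SDs. In sucrose crude libraries Kcnma1 and Kcnd2 were again at ranks 1 and 2, and Kcnj10, Kcnab1 and Kcnab2 at ranks 3, 4 and 5. The 10 most counted members held 69.5% of all Kcn counts in SynSURF crude libraries.

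Fewer channel genes were seen in SynSURF sorted libraries than in crude ones. Between 65 and 78 of the 92 genes had a count in a SynSURF crude library (median 71), and between 8 and 30 in a sorted library (median 15). The ranges did not overlap. All genes of the table behaved likewise, with 12236 to 14701 seen in a crude library (median 13437) and 2588 to 6630 in a sorted library (median 3743). With every SynSURF library thinned to 76520 counts, the ranges were 40 to 50 channel genes in crude and 5 to 18 in sorted libraries. They still did not overlap. All genes of the table were not counted after thinning, so this gap cannot be called particular to channel genes. In the sucrose preparation, 65 to 75 genes had a count in a crude library and 70 to 73 in a sorted library.

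The channel genes also took a smaller share of the counts. Their share was 0.625% to 0.758% in SynSURF crude libraries (median 0.668%) and had a median of 0.142% in sorted libraries, where it ran from 0.0228% to 1.35%. The highest sorted share came from replicate 8, and the other 9 sorted libraries all lay below every crude library. In the sucrose preparation the share was 0.531% to 0.794% in crude and 0.585% to 0.812% in sorted libraries, which overlapped.

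**Figure D1:**
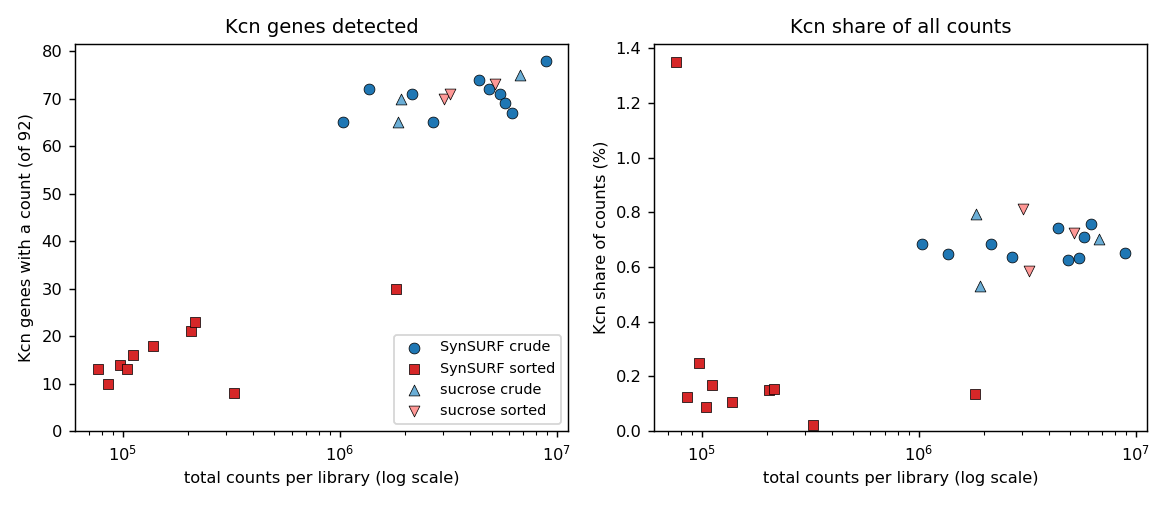
Kcn genes with a count (left, of 92) and Kcn share of all counts in percent (right) against total counts per library (log axis), 1 point per library, by group. SynSURF sorted libraries have 8 to 30 genes and, apart from replicate 8 at 1.35%, shares under those of every crude library, while crude and sorted sucrose libraries overlap.

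Pooled over the 10 SynSURF sorted libraries, 4957 Kcn counts were observed, where the pooled crude shares applied to the same totals gave 21567. Of the 69 members with an expected count of at least 3, 65 were below their expected count, or 94.2% against 85.0% of all 12631 such genes. With TMM-scaled totals in place of plain totals, 47 of 56 members were below it, or 83.9% against 62.5% of all genes, and 7465 Kcn counts were expected. Among the members above the count expected from plain totals were Kcne2, Kcng4 and Kcnj12, at 4.38, 2.44 and 1.53 times that count. Each of these took all of its sorted counts (24, 26 and 10) from 1 library. This single-library pattern was common, since 44 of the 52 members with any sorted count took more than 50% of it from 1 library.

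**Figure D2:**
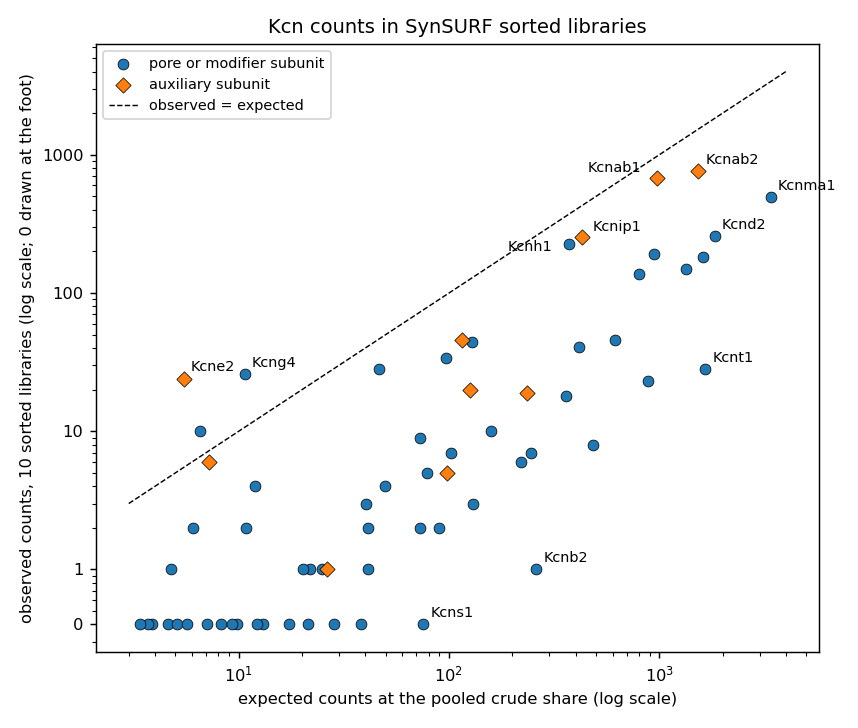
Observed counts over the 10 SynSURF sorted libraries (vertical, log axis, 0 drawn at the foot) against the count expected from the pooled crude share (horizontal, log axis) for 66 of the 69 members with an expected count of at least 3. The dashed line marks equality, circles are pore or modifier subunits and diamonds auxiliary subunits, and 63 of the 66 lie below the line.

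Coverage of the sorted libraries was uneven across members. Only Kcnma1 and Kcnab2 had counts in all 10 sorted libraries, Kcna1 in 9, and Kcnab1 and Kcnip1 in 8. A further 18 members had counts in 3 to 7 sorted libraries and 29 in 1 or 2. The remaining 30 members seen in crude libraries had no sorted count. For 17 of these at least 3 pooled counts were expected at the crude share, and for 13 fewer than 3, so that a loss of the 13 was not detectable at this depth. The 17 are 24.6% of the members with at least 3 expected counts, and 22.7% of all such genes had no sorted count either. With TMM-scaled totals, 9 of the 30 were expected at 3 counts or more. These are 16.1% of the 56 members with at least 3 expected counts on that scale, against 15.9% of all such genes.

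Among the 30, the floor of 3 pooled counts gives a lower bound on the fall. The bound depends on the scaling and on sorted replicate 1, the deepest sorted library. Like the floors, these bounds cover counting error only, since amplified reads are not independent molecules. On the TMM scale of the CPM, Kcns1, a silent modifier of Kv2 channels, was at least 8.68-fold lower in sorted than in crude libraries, and at least 5.55-fold lower without sorted replicate 1. With plain totals these bounds were 25.1-fold and 10.8-fold. Kcnj2, a strong inward rectifier, was at least 4.42-fold lower on the TMM scale and 2.83-fold without that library. Kcnk3, an acid-sensitive K2P leak channel, was at least 3.29-fold lower and 2.10-fold without it, and the Kir gene Kcnj13 at least 2.46-fold and 1.57-fold. The modifier Kcng2 was at least 2.01-fold lower, and 1.28-fold without it. For Kcnj11, the pore of the ATP-sensitive channel, the SK genes Kcnn1 and Kcnn3 and the SLO3 gene Kcnu1, the bounds were 1.504, 1.41, 1.13 and 1.07-fold, and without sorted replicate 1 there was none. For Kcnh5, an ether-a-go-go pore, the TMM scale gave no bound. All 10 had counts in the sucrose sorted libraries.

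Sorted and crude SynSURF libraries were compared gene by gene with edgeR's quasi-likelihood test, and a gene was called at a Benjamini-Hochberg adjusted p below 0.05. Of the 92 members, 35 passed the expression filter and 57 were not tested. Of the 35, 1 was higher, 19 were lower and 15 did not pass the test. No member was called higher without sorted replicate 8, or without any 1 of 9 crude libraries (replicates 2 to 10). Over all genes tested, 7.62% were called higher and 22.1% lower, or 29.7% in either direction. The median log2 fold change was -1.85 over the 35 members and -0.18 over all genes. The filter required 8.34 CPM in 10 libraries. This level was reached in more crude than sorted libraries by 33 of the 35 members, so these members are those with appreciable crude levels. Passing mainly through crude libraries favours negative fold changes. The same share was not counted over all genes, so the medians of members and of all genes may not compare like with like. Pore and modifier subunits gave 1 higher and 17 lower of 28, and auxiliary subunits 0 higher and 2 lower of 7. In these bulk libraries, fewer particles of a kind and less RNA per particle cannot be told apart.

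The CPM scale bears on these counts. With plain library totals in place of TMM factors, the median over all genes moved by -1.09, to -1.28, and the members' median went to -3.33, with 0 members higher and 28 lower. The split over all genes then went from 503 higher and 1458 lower to 100 higher and 2592 lower. Relative to all genes, the members' median was -1.67 with TMM factors and -2.05 with library totals.

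**Figure D3:**
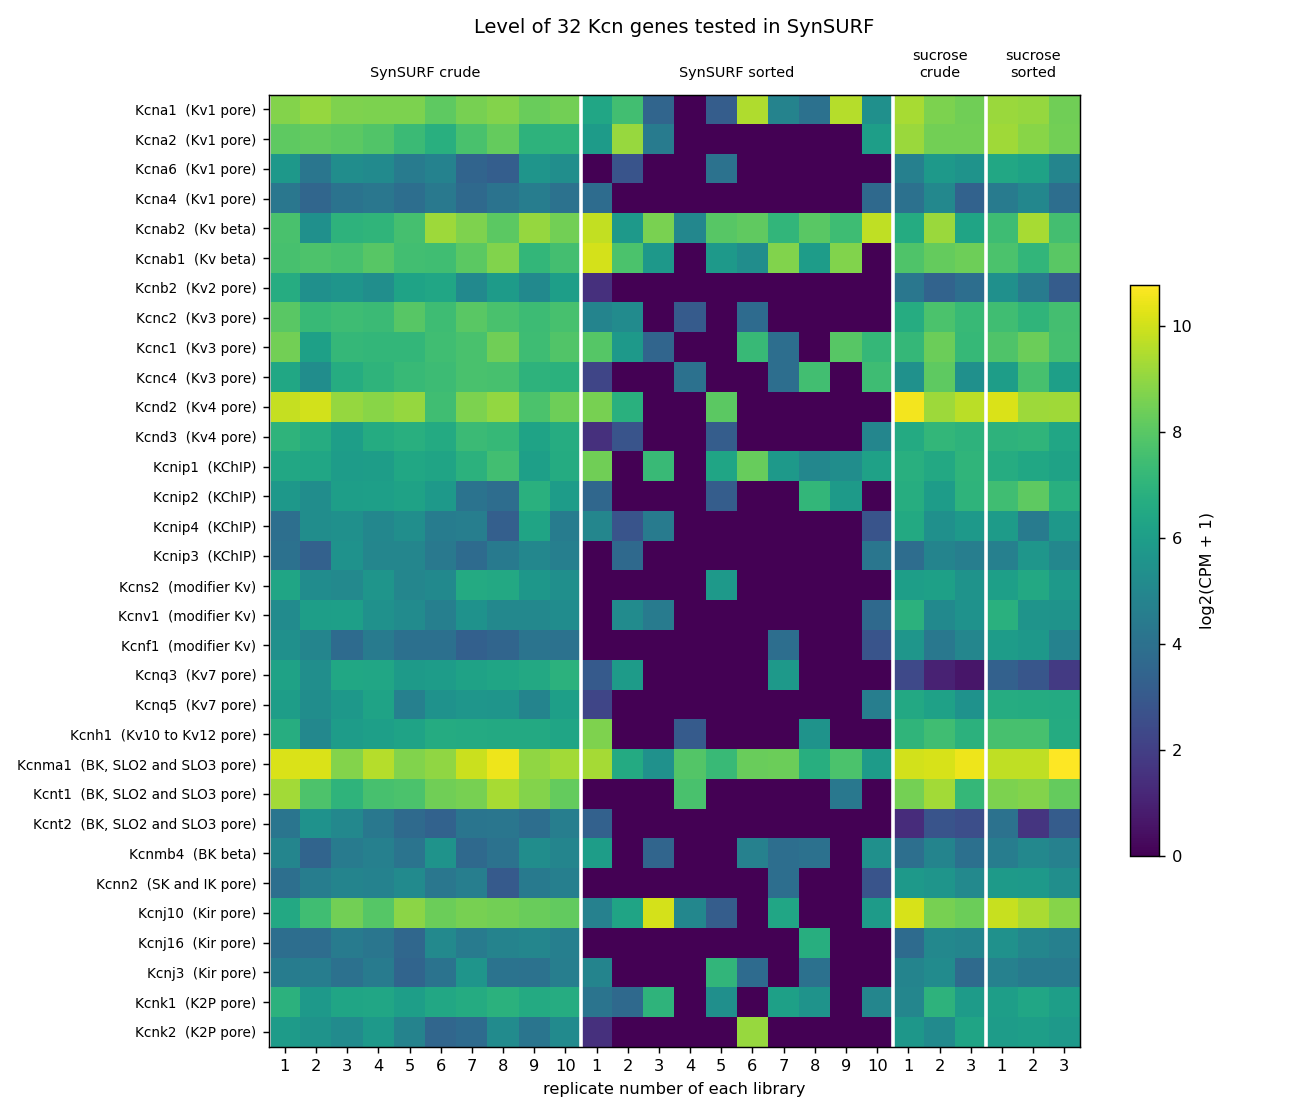
Level of 32 of the 35 Kcn genes tested in the SynSURF preparation, as log2(CPM + 1), in each library (columns, by replicate number) of the 4 groups. The darkest cells are 0, and most sorted SynSURF rows hold several of them beside 1 or 2 high cells, whereas crude SynSURF and both sucrose groups are filled throughout.

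Kcnb2 is a Kv2 pore, a family of delayed rectifier channels of the cell body and proximal dendrite. It lay between 33.2 and 100 CPM in SynSURF crude libraries (median 53.9) and at 0 in 9 of 10 sorted libraries, with 1.85 CPM, a single count, in replicate 1. All sorted libraries were below all crude ones, and the log2 fold change was -6.54 ± 0.80 (SE, n = 10 and 10, edgeR adjusted p = 5.29e-06). Over the 10 sorted libraries 260.1 counts were expected. Without replicate 1 no sorted count was left and the fitted value, which is then no bound, was -10.50.

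The Kv3 pores support fast firing. Kcnc2 lay between 151 and 260 CPM in crude libraries (median 184) and between 0 and 35.8 CPM in sorted libraries (median 0), with no overlap, and fell by 4.30 ± 0.78 on the log2 scale (edgeR adjusted p = 0.000121). Kcnc1 at -1.19 ± 0.79 and Kcnc4 at -1.77 ± 0.87 did not pass the test, and Kcnc4 passed it without sorted replicate 8 (-2.47) or 10 (-2.66).

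The Kv4 pores carry the subthreshold A-type current of dendrites. Kcnd3 lay between 64.8 and 161 CPM in crude libraries (median 99.4) and between 0 and 29.4 CPM in sorted libraries (median 0), again with no overlap, and fell by 4.30 ± 0.76 on the log2 scale (edgeR adjusted p = 8.86e-05). Kcnd2 lay between 174 and 1055 CPM in crude libraries and was at 0 in 7 sorted libraries, with 113, 262 and 381 CPM in the other 3. Its fold change of -2.70 ± 0.98 was near the threshold (adjusted p = 0.0390), and the call was lost without any 1 of 8 crude libraries (replicates 1 to 5, 7, 8 and 10).

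KChIPs are calcium-binding partners of Kv4 channels, and 2 of their 4 genes fell. Kcnip3, which encodes a protein also known as a transcriptional repressor, lay between 9.23 and 43.7 CPM in crude libraries and was at 0 in 8 sorted libraries. At the plain crude share, at least 3 counts were expected in 6 of these 8. On the TMM scale, the crude range overlapped the 5.55 to 57.4 CPM that a sorted 0 allows. The zeros of Kcnip3 alone therefore do not show a fall. Kcnip3 fell by 2.69 ± 0.69 on the log2 scale (edgeR adjusted p = 0.00390). Kcnip4 fell by 1.87 ± 0.64 (adjusted p = 0.0287), a call that was lost without crude replicate 9, and stood at -2.94 without sorted replicate 1. Kcnip1 lay between 61.4 and 183 CPM in crude and 0 and 344 CPM in sorted libraries (medians 84.2 and 62.6), with a fold change of 0.24 ± 0.72 that went to -0.86 with library totals and did not pass the test. Kcnip2 at -1.61 ± 0.86 did not pass it either, and was at -3.08 without sorted replicate 8 (adjusted p = 0.00552).

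Kv1 pores sit on axons and terminals. Kcna1 lay between 275 and 528 CPM in crude libraries (median 399), and in sorted libraries between 0 and 765 CPM (median 34.2). Sorted replicates 6 and 9, at 708 and 765 CPM, were above every crude library and the other 8 were below every one, so that the fold change of -1.12 ± 0.79 did not pass the test (edgeR adjusted p = 0.298). Kcna2 had sorted counts in 4 libraries, 1 of them at 555 CPM, and a fold change of -1.52 ± 0.92 (adjusted p = 0.216). Without that library, replicate 2, it was at -3.53 (adjusted p = 0.00171). Kcna6 lay between 8.20 and 52.5 CPM in crude libraries and was at 0 in 8 sorted libraries, and fell by 3.71 ± 0.77 (adjusted p = 0.000553). Kcna4, an inactivating Kv1 pore, fell by 1.79 ± 0.54 (adjusted p = 0.0134), was at 0 in 8 sorted libraries, and was at -2.99 without sorted replicate 1. At the plain crude share, at least 3 counts were expected in all 8 zero libraries of Kcna6. For Kcna4 this held in only 3 of 8, so most of its zeros allow an unchanged level. On the TMM scale, the crude range of Kcna6 overlapped the 5.55 to 57.4 CPM that a sorted 0 allows. The zeros of Kcna6 alone therefore do not show a fall.

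The Kv beta genes, whose proteins accompany Kv1 channels, did not pass the test where tested. Kcnab2 lay between 41.9 and 580.5 CPM in crude libraries (median 236.5) and between 30.5 and 886 CPM in sorted libraries (median 256), so the sorted range enclosed the crude one. Its log2 fold change was 0.22 ± 0.62 (edgeR adjusted p = 0.814) and went to -0.87 with library totals. Kcnab1 lay between 139 and 423 CPM in crude libraries (median 197) and between 0 and 1069 CPM in sorted libraries (median 58.2), with 6 sorted libraries below every crude one. Its fold change of 0.07 ± 0.78 (adjusted p = 0.956) went to -1.34 with library totals and to -0.69 without sorted replicate 1, which held 84.4% of its sorted counts. Kcnab3 was not tested. These SEs do not show that the levels were equal. The pooled sorted counts were 0.50 and 0.70 times the count expected from the plain crude share for Kcnab2 and Kcnab1.

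Every tested member of the modifier, and BK and SLO2 groups fell, as did Kcnq3 and Kcnq5. Kcnq3, a Kv7 pore of the M current, fell by 2.60 ± 0.80 on the log2 scale (edgeR adjusted p = 0.0162). Kcnq5 lay between 24.7 and 76.1 CPM in crude libraries and was at 0 in 8 sorted libraries, with 3.70 and 23.5 CPM in the others, which gave no overlap and a fall of 3.71 ± 0.72 (adjusted p = 0.000276). Of the modifiers, which open no channel alone and join Kv2 pores, Kcnf1 fell by 3.64 ± 0.75, Kcns2 by 3.22 ± 0.86 and Kcnv1 by 2.44 ± 0.72 (adjusted p = 0.000477, 0.00601 and 0.0119). Kcns2 had sorted counts in replicate 5 alone, and its fitted value without that library was -10.41.

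Kcnma1, at 426 to 1442 CPM in crude libraries (median 692), was at 42.1 to 640 CPM in sorted libraries (median 184). Sorted replicate 1, the deepest, overlapped the crude range and the other 9 sorted libraries, at 328 CPM or less, lay below it. The log2 fold change was -1.85 ± 0.55 (edgeR adjusted p = 0.0122). Kcnt1 lay between 129 and 652 CPM in crude libraries and was at 0 in 8 sorted libraries, with 19.1 and 206 CPM in the others. It fell by 3.91 ± 1.04 (edgeR adjusted p = 0.00541). Without sorted replicate 4, which held 27 of its sorted counts, the fitted value was -8.58. That value rests on 1 sorted count and is no bound. The Kcnt1 paralogue Kcnt2 was at 0 in 9 sorted libraries, had no overlap and fell by 2.96 ± 0.63 (edgeR adjusted p = 0.000727). Its fitted value was -8.999 without sorted replicate 1, its only sorted library with counts. The crude range of Kcnt2, 9.52 to 44.0 CPM, overlapped the 5.55 to 57.4 CPM that a sorted 0 allows. Its zeros alone therefore do not show a fall. Kcnmb4, the BK beta subunit of neurons, had a fold change of -0.32 ± 0.61 (adjusted p = 0.715) with counts in 6 sorted libraries. Among calcium-activated SK genes, Kcnn2 lay between 7.22 and 34.3 CPM in crude libraries and was at 0 in 8 sorted libraries. At the plain crude share, at least 3 counts were expected in 5 of these 8. On the TMM scale, the crude range overlapped the 5.55 to 57.4 CPM that a sorted 0 allows. The zeros of Kcnn2 alone therefore do not show a fall. Kcnn2 fell by 3.88 ± 0.72 (edgeR adjusted p = 0.000173).

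None of the 3 Kir genes tested, of 15, or the 2 K2P genes tested, of 14, passed the SynSURF test with all libraries. The other genes of both groups were not tested, so this result does not extend to them. Kcnj10, Kcnj16, Kcnk1 and Kcnk2 were each called lower without the sorted library that held their highest value. Leaving out the highest value lowers the fold change by construction, so these calls show only how far the result rests on 1 library. The same limit applies to Kcna2, Kcnc4, Kcnip2 and Kcnh1. Over all genes, lower calls without 1 sorted library ran from 25.5% to 28.1%, against 22.1% with all libraries. Kcnj10 lay between 90.2 and 482 CPM in crude libraries (median 322) and had a sorted median of 28.2 CPM, with 3 sorted libraries at 0. Sorted replicate 3, at 1075 CPM, was above every crude library, and the other 9, at 81.9 CPM or less, were below every one. The fold change was -1.15 ± 0.86 (edgeR adjusted p = 0.327), and without sorted replicate 3 it was -3.25 and passed the test (adjusted p = 0.00117). The summed astrocyte markers ran from 1805 to 3249 CPM in crude and 168 to 3522 CPM in sorted libraries, with 1896 CPM in sorted replicate 3 and no marker at 0 over the sorted libraries. Of the 6 astrocyte markers, 4 fell, and their part in the Kcnj10 values was not tested. Kcnj3, a G protein-gated pore, was at -0.05 ± 0.71 and Kcnk1, a K2P pore, at -1.43 ± 0.68 (adjusted p = 0.965 and 0.114). Kcnk1 was at -2.01 without sorted replicate 3 (adjusted p = 0.0216). The Kir gene Kcnj16 had sorted counts in replicate 8 alone, and without it all sorted libraries were at 0. Kcnk2, a mechanosensitive K2P pore, was at 0.66 ± 1.03 with 97.7% of its 44 sorted counts from replicate 6, and at -5.66 without it (edgeR adjusted p = 3.08e-05). The latter is a fitted value that rests on 1 sorted count and is no bound. Kcnh1, an ether-a-go-go pore, was at -0.63 ± 0.92 (adjusted p = 0.635) with 98.2% of its 228 sorted counts from replicate 1, and at -4.05 without it (adjusted p = 0.000575).

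**Figure D4:**
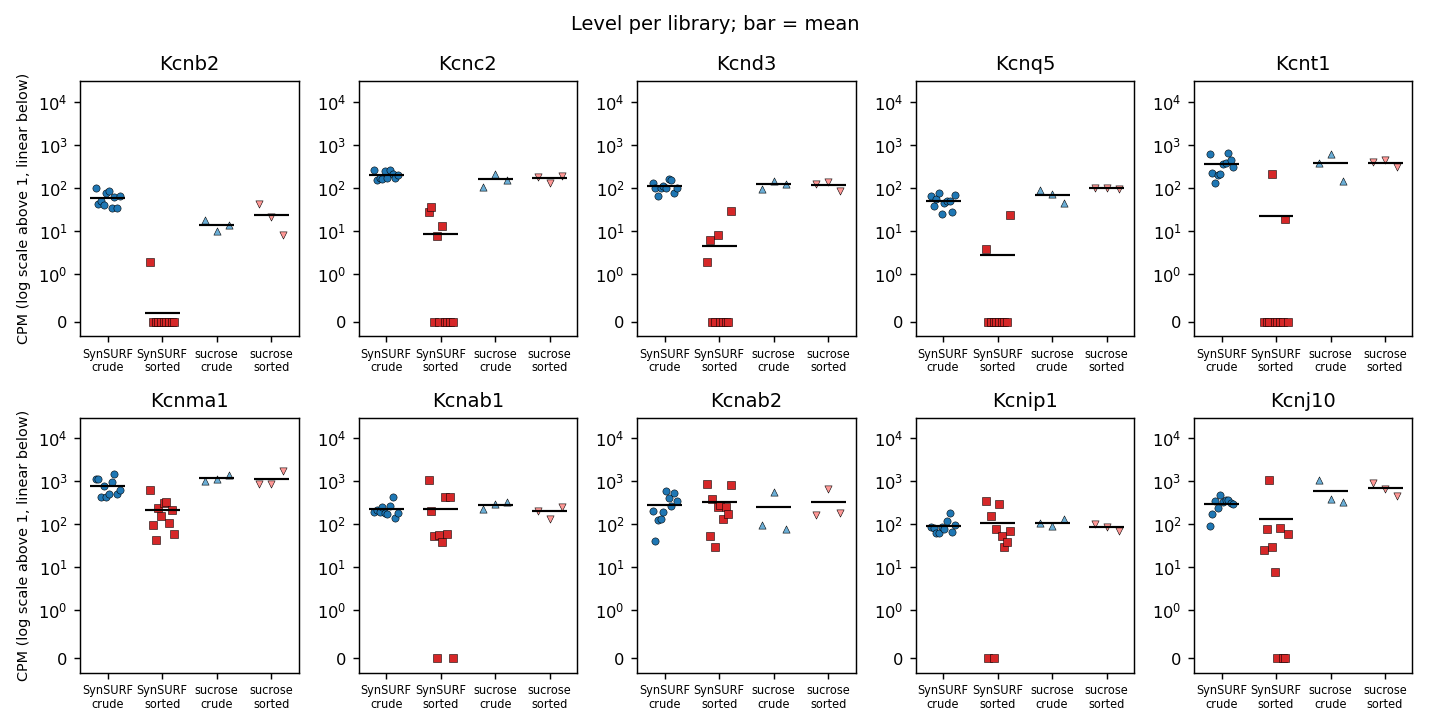
CPM in each library for 10 Kcn genes (axis logarithmic above 1 CPM and linear below), with the group mean as a bar. Kcnb2, Kcnc2, Kcnd3, Kcnq5 and Kcnt1 are at or near 0 in most SynSURF sorted libraries, Kcnab1, Kcnab2 and Kcnip1 overlap the crude libraries, and Kcnj10 has 1 sorted library at 1075 CPM.

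In all, 5 members had every sorted library below every crude library, namely Kcnb2, Kcnc2, Kcnd3, Kcnq5 and Kcnt2, and 0 had every sorted library above. Over all tested genes the corresponding shares were 8.73% and 0.152%. The lowest crude levels of Kcnc2 (151 CPM) and Kcnd3 (64.8 CPM) were above the highest sorted floor, 57.4 CPM. Those of Kcnb2 (33.2 CPM), Kcnq5 (24.7 CPM) and Kcnt2 (9.52 CPM) were below it, so for these genes the order can follow in part from sorted depth. When the crude libraries were thinned to the sorted totals, 15 members passed the filter, of which 5 were lower (Kcnc2, Kcnd2, Kcnd3, Kcnma1 and Kcnt1) and 1 was higher, against 12.1% lower and 13.4% higher over all genes then tested. Kcnc2 was then at -4.15 and Kcnd3 at -4.03.

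Markers of other brain cells moved in the same libraries. Summed oligodendrocyte markers ran from 2922 to 6544 CPM in crude and from 19321 to 98867 CPM in sorted SynSURF libraries. Of 5 tested markers, 3 were higher. Mbp and Mobp had the highest sorted means, which went from 2602 to 38464 CPM and from 679 to 11205 CPM. The list was split, since the means of Mog went from 50.3 to 20.1 CPM (not called) and those of Mag from 12.2 to 5.74 CPM (not tested). Microglial markers summed to 28.8 to 200 CPM in crude and 0 to 320 CPM in sorted libraries, where 1 of the 6 was at 0 throughout. Endothelial and mural markers summed to 19.9 to 40.3 CPM in crude and 0 to 10.5 CPM in sorted libraries, where 5 of 6 were at 0. In the sucrose libraries the sums of the 4 non-neuronal lists overlapped between crude and sorted, and those of neuron markers, at 2568 to 3220 CPM in crude and 1809 to 2287 CPM in sorted, did not, with 0 of 6 markers called. The part of these changes in the Kcn results was not tested.

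In the sucrose preparation no Kcn gene passed the test. Of 59 members tested, 0 were called (edgeR, background 0% over 10589 genes). At an unadjusted p under 0.05 there was 1 member, Kcnu1, and 324 genes in all. DESeq2's Wald test called 0 members and 1 gene in all, and the fit with a replicate block gave the same 2 counts. The members' median log2 fold change was 0.16, against -0.04 over all genes.

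The genes that fell in SynSURF sorted libraries were present in all sucrose libraries. Kcnc2 was at 101, 211 and 153 CPM in sucrose crude and 175, 130 and 185 CPM in sucrose sorted replicates 1 to 3, with a log2 fold change of 0.07 ± 0.40 (SE, n = 3 and 3). Kcnd3 was at 94.4, 139 and 123 CPM in crude and 123, 133 and 83.0 CPM in sorted libraries, a fold change of -0.08 ± 0.39. Kcnt1 was at 365, 621 and 143 CPM in crude and 403, 438 and 297 CPM in sorted libraries, a fold change of 0.01 ± 0.49. The crude and sorted values of each overlapped.

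Kcnb2 was at 18.04, 9.84 and 13.7 CPM in sucrose crude and 41.6, 21.3 and 7.81 CPM in sucrose sorted libraries, a fold change of 0.78 ± 0.65. Kcnma1 was at 1037, 1113 and 1436 CPM in crude and 866, 843 and 1744 CPM in sorted libraries, a fold change of -0.05 ± 0.39. Kcnq5 was at 90.2, 70.5 and 44.0 CPM in crude and 99.96, 97.1 and 94.7 CPM in sorted libraries, so every sorted library was above every crude one, with a fold change of 0.51 ± 0.41 that did not pass the test. The same order held for Kcnh5, which makes 2 of 59 members, where 4.57% of all genes showed it. The opposite order was found in 0 members and 3.84% of genes.

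**Figure D5:**
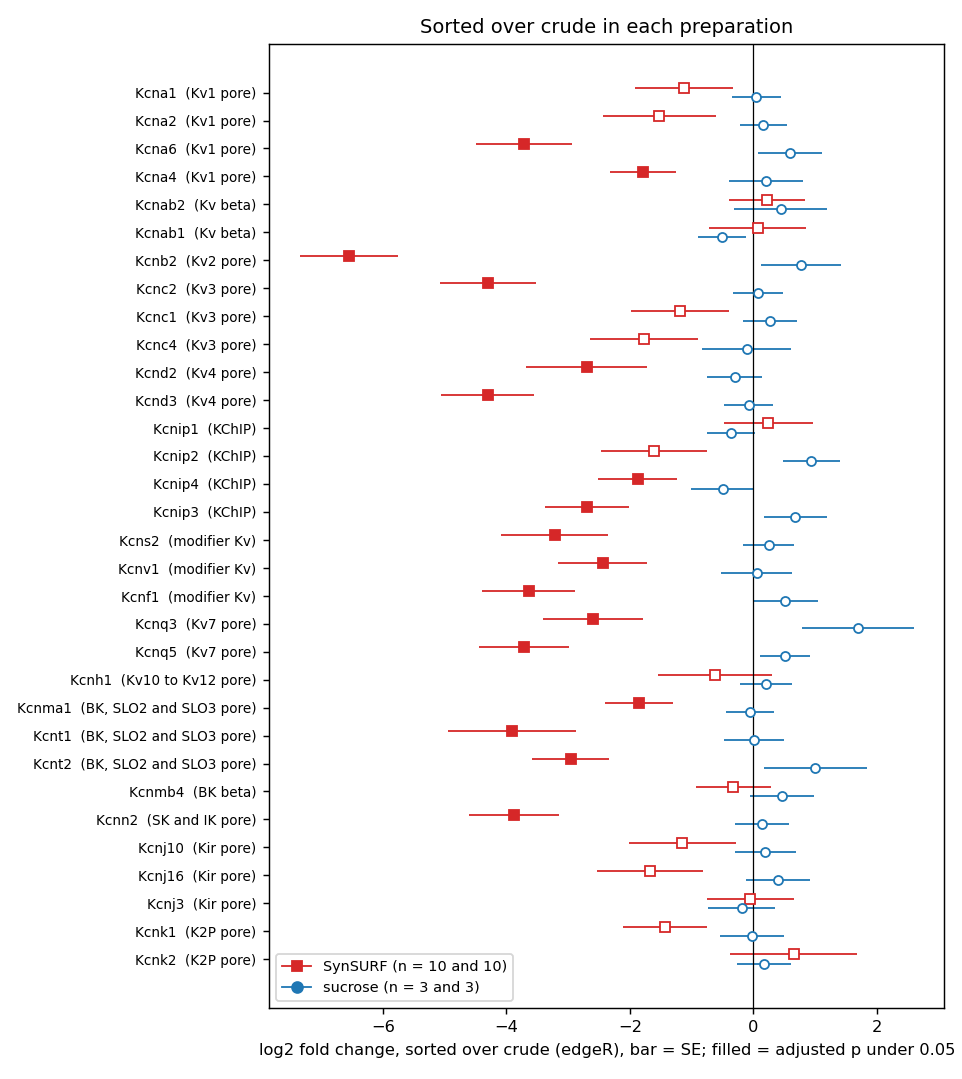
Log2 fold change of sorted over crude libraries with its SE (edgeR) for 32 of the 35 members tested in SynSURF (squares, n = 10 and 10) and for the same genes in the sucrose preparation (circles, n = 3 and 3); filled symbols have adjusted p under 0.05. Most SynSURF values lie left of 0 and the sucrose values lie around 0, none of them filled.

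The difference between the preparations was tested as the SynSURF effect minus the sucrose effect in 1 edgeR fit over genes of both tables. Of 58 members tested, 20 had a lower and 0 a higher effect in SynSURF, against 17.3% lower and 0.299% higher over all genes (17.6% either way). The members' median difference was -3.20 on the log2 scale, and that of all genes -1.17. With the sucrose pairs as a block, the members' count was 17, and lower calls over all genes went from 1853 to 1714 of 10713.

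Of members with counts in sorted libraries of both preparations, Kcnb2 had a difference of -7.70 ± 1.16 (SE, edgeR adjusted p = 0.000655), which rests on 1 SynSURF sorted count. Kcnc2 was at -4.75 ± 1.29 (adjusted p = 0.0105), Kcna6 at -4.72 ± 1.21, Kcnd1 at -4.67 ± 1.24, Kcnd3 at -4.63 ± 1.21 and Kcnq5 at -4.62 ± 1.18. Kcnf1 at -4.52 ± 1.11, Kcnt2 at -4.44 ± 1.08, Kcnn2 at -4.40 ± 1.09 and Kcnip3 at -3.79 ± 1.11 also passed. These are pore subunits apart from the modifier Kcnf1 and the KChIP Kcnip3, and the Kv7 gene Kcnq3 passed as well, at -4.61 ± 1.48.

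The other called members were Kcns1, Kcnj2, Kcnj11, Kcnj13, Kcnk3 and Kcnn1, with no SynSURF sorted count, Kcnk9, with no sucrose crude count, and Kcnk13, with 1 SynSURF sorted count. Their fitted values depend on the prior count and are not bounds. That holds too for Kcnb2, Kcnd1 and Kcnt2, whose SynSURF sorted counts all came from replicate 1 and whose values without it were -11.52, -8.52 and -10.26. The calls of Kcnk13, Kcnn1, Kcnj13, Kcnq3, Kcnj11 and Kcnip3 were lost without 1 library in 15, 13, 7, 4, 3 and 2 of 26 cases. Kcnma1 at -2.23 ± 0.98 (edgeR adjusted p = 0.116), Kcnt1 at -4.66 ± 1.75 (adjusted p = 0.0616) and Kcnab1 at 0.19 ± 1.47 did not pass the test of the difference. Kcnma1 passed it without SynSURF sorted replicate 1 (-2.62, edgeR adjusted p = 0.0401) and Kcnt1 without replicate 4 (adjusted p = 0.000441). In each case the library left out held the gene's highest sorted value, which lowers the difference by construction.

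Genes of channel complexes outside the Kcn family gave 0 higher, 9 lower and 16 not called of 25 tested in SynSURF, from a list of 28, against 7.62% higher and 22.1% lower over all genes. The list's median log2 fold change was -0.22. Dpp10, a Kv4 partner, fell from a mean of 118 to 4.42 CPM (-4.23 ± 0.80, edgeR adjusted p = 0.000186). Cntnap2, which gathers Kv1 channels at the juxtaparanode, fell from 356 to 28.7 CPM (-3.65 ± 0.92). The others that fell were Lgi1, Lgi3, Adam22, Epb41l3, Dlg1, Nedd4l and Lrrc55, which encode secreted, membrane and scaffold partners of Kv1 channels, a ubiquitin ligase and a BK partner. Dpp6 at -1.30 ± 0.82 and the scaffold gene Dlg2 at 0.34 ± 0.67 did not pass the test. In the sucrose preparation 0 of 27 passed, and 5 of 27 had a lower effect in SynSURF than in sucrose, near the 17.3% of all genes.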

How the data were processed

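Per the labels, cDNA was amplified with a Repli-g whole-transcriptome kit, and libraries were built on the 10x platform. The authors deposited estimated counts and TPM per gene symbol in separate tables for each preparation. Per the submitters' processing notes, HISAT2, fastp, GRCm39 and GRCm38 were used, without role or version. For counting tool, strand setting and build of a table, nothing is given in the sources used here, so overlapping or antisense genes cannot be told apart from their partners. Of the values, 7278 in the SynSURF and 4660 in the sucrose table were not whole and were rounded to whole numbers. The 18 other columns of per-sample values and 2 libraries of total RNA were not used.

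Groups were taken from the titles. Sorted and crude libraries were compared within each preparation with edgeR 4.0.16 (R 4.3.3): quasi-likelihood test, TMM factors, filterByExpr, Benjamini-Hochberg adjustment over all genes tested, threshold 0.05. The difference between preparations was a contrast in 1 fit over 23466 shared symbols. CPM and their floors are relative to TMM-scaled totals, expected counts to plain totals unless stated. The SE is the log2 fold change over the square root of F. On simulated data the SynSURF fit recovered 54.1% of 181 tested genes changed by 3 on the log2 scale, with 4.9% false calls, the sucrose fit 87.0% of 200, and the difference fit 25.0% of 200 genes changed by 5. Deviations of same-numbered crude and sorted libraries correlated at 0.336, 0.473 and 0.323 in sucrose, each higher than with any other number. These numbers were taken as pairs in the fits with a replicate block only. The main sucrose and difference fits did not include the pairs. The pairing comes from the data, since the labels do not state it.

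The members and gene lists were chosen with earlier results of these data known. Named genes were those past the threshold in any test, the highest crude CPM of each subfamily, the 10 highest in crude without a sorted count, and those with counts in at least 8 sorted libraries. Kcna2, Kcnc1, Kcnc4, Kcng4, Kcnip2, Kcnj3, Kcnj6, Kcnj12 and Kcnk2 were named after their values were seen. The alternatives were other scalings (library totals, DESeq2 1.42.0 size factors), the DESeq2 Wald test, no filter, a minimum mean of 5 CPM, a replicate block, thinning, a minimum of 3 counts for detection, and leaving out each library. The block of the sucrose pairs alone, and expected counts and bounds on TMM-scaled totals and without sorted replicate 1, were added after seeing the data. Coding sequences were GENCODE M21 (GRCm38). Of the members, 3 are included in all counts and medians but are not reported here one by one.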

Additional observations from a re-analysis of the deposited data

Results flagged for a closer look

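In 24 of 72 groups of values examined, 1 library stood apart from the rest of its group by Dixon's 95% criterion, 17 of them in sorted and 7 in crude SynSURF libraries. Chance alone marks about 1 in 20 groups, and a group with 9 zeros and 1 value is always marked. In sorted libraries, replicate 1 stood apart for Kcnab1 at 1069 CPM, Kcnma1 at 640 CPM, Kcnh1 at 414 CPM, Kcnt2 at 9.25 CPM and Kcnb2 and Kcnd1 at 1.85 CPM each. Replicate 8 stood apart for the Kcn share of counts at 1.35%. Replicate 6 stood apart for Kcne2 at 303 CPM. Replicate 10 stood apart for Kcnd3 at 29.4 CPM and Kcnq5 at 23.5 CPM, replicate 7 for Kcnf1 and Kcnn2 at 13.7 CPM each, and replicate 5 for Kcns2 at 55.5 CPM and Kcna6 at 15.8 CPM. The others were Kcnj10 at 1075 CPM in replicate 3, Kcnt1 at 206 CPM in replicate 4 and Kcnk13 at 5.96 CPM in replicate 2.

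In crude libraries, replicate 8 stood apart for Kcnab1 at 423 CPM and Kcnip1 at 183 CPM, replicate 2 for Kcnk9 at 24.9 CPM and Kcns1 at 76.0 CPM, replicate 4 for Kcnu1 at 11.5 CPM, replicate 6 for Kcnj13 at 12.2 CPM and replicate 9 for Kcnip4 at 78.1 CPM.

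The sorted-over-crude effect differed between the preparations for 20 members in the edgeR contrast (adjusted p under 0.05), each lower in SynSURF. For 19 of them, the differences on the log2 scale were -9.28 for Kcns1, -8.36 for Kcnk3, -7.91 for Kcnj2, -7.75 for Kcnk9, -7.70 for Kcnb2, -7.45 for Kcnj11, -7.22 for Kcnj13 and -6.26 for Kcnn1. They were -4.75 for Kcnc2, -4.72 for Kcna6, -4.67 for Kcnd1, -4.63 for Kcnd3, -4.62 for Kcnq5, -4.61 for Kcnq3, -4.52 for Kcnf1, -4.44 for Kcnt2 and -4.40 for Kcnn2. Kcnip3 was at -3.79 and Kcnk13 at -3.56. Values of members with a group at 0 are fitted and are no bounds.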

How the results depend on the processing

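In SynSURF, the 19 lower Kcn calls became 28 with library totals, 19 with DESeq2 size factors, 24 with the DESeq2 Wald test, 33 with no filter, 23 with a minimum mean CPM and 5 of 15 tested with the crude libraries thinned. The 1 higher call became 0 with library totals and the Wald test, 2 with no filter and with the minimum mean CPM, and 0 to 1 without 1 library. Over all genes, higher and lower calls were 100 and 2592 with library totals, 816 and 3601 with no filter, 787 and 2214 with the minimum, 236 and 214 with thinning, and 2587 lower with the Wald test. Without sorted replicates 1 and 4 there were 2346 lower, and higher calls ran from 307 to 621 without 1 library. With a replicate block, SynSURF gave 0 higher and 27 lower Kcn calls and 37 higher and 2640 lower in all. Same-numbered SynSURF libraries correlated at 0.056 to 0.186 and 8 of 10 correlated best with their own number, a hint of pairing from the data. Not every correlation was over 0.1 and the labels state no pairing, so the numbers were not taken as pairs. For sucrose, 1 gene was lower with no filter, the Wald test and the replicate block, and 0 to 1 without 1 library; the block changed no Kcn call.

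For the difference, lower Kcn calls were 34 with a replicate block of both preparations and 13 to 24 without 1 library. Over all genes, lower calls were 2708 with that block and 1237 to 2181 without 1 library, against 1853 in the main fit. The rise with the block was thus seen over all genes as well as in the members. Higher calls over all genes were 21 with library totals, 67 with no filter, 10 with the replicate block, 14 with the block of the sucrose pairs alone, and 16 to 52 without 1 library, and lower calls 3012 with library totals. The mean number of Kcn genes with a count in SynSURF crude, 70.4, was 45.3 after thinning and 64.3 at a minimum of 3 counts. In sucrose crude, 70.0 became 62.3 at 3 counts, and in sucrose sorted, 71.3 became 69.3 after thinning and 67.0 at 3 counts.

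Signs changed as follows, on the log2 scale, and the cause was not tested. In SynSURF, Kcnab1 went to -1.34 with library totals, -0.13 with DESeq2 size factors and with the Wald test, -0.23 with no filter, -0.069 with the minimum, -1.39 with the replicate block, -0.58 without sorted replicates 1 and 4, and -0.69 to 0.23 without 1 library. Kcnab2 went to -0.87 with library totals, -0.11 with no filter, -0.051 with the replicate block, and -0.085 to 0.41 without 1 library. Kcnip1 went to -0.86, -0.10 and -0.67 in these 3 settings, -0.059 without sorted replicates 1 and 4, and -0.18 to 0.42 without 1 library. In the difference, Kcnab1 went to -0.83 with library totals, -1.26 with the replicate block and -0.60 to 0.47 without 1 library, Kcnip1 to -0.51, -0.70 and -0.29 to 0.40, and Kcnab2 to -2.05 to 0.26.

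In sucrose, where none was called, the replicate block put Kcnj2 at 0.62, Kcnk1 at 0.19 and Kcnn3 at 0.048, and Kcnt1 was at -0.0075 with DESeq2 size factors, -0.020 with the minimum and -0.0073 with the Wald test. Without 1 library the sucrose values were -0.14 to 0.38 for Kcna1, -0.14 to 0.83 for Kcna4, -0.51 to 1.96 for Kcnab2, -0.15 to 0.37 for Kcnc2, -0.69 to 0.19 for Kcnd2, -0.21 to 0.12 for Kcnd3, -0.76 to 0.93 for Kcng2, -0.11 to 0.96 for Kcnj10, -0.0092 to 0.58 for Kcnj13, -0.61 to 1.15 for Kcnj2, -0.38 to 0.68 for Kcnk1, -0.46 to 0.12 for Kcnma1, -0.54 to 0.033 for Kcnn1, -0.060 to 0.31 for Kcnn2, -0.95 to 1.48 for Kcnn3, -1.36 to 0.46 for Kcns1, -0.38 to 0.59 for Kcnt1 and -0.52 to 0.83 for Kcnv1.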

Other observations

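Crude libraries of the preparations differed in a few channel genes, which are given as values without a test, since the tables were made separately. Kcnq3 lay between 39.1 and 121 CPM in the 10 SynSURF crude libraries and at 4.24, 1.03 and 0.549 CPM in the 3 sucrose crude libraries. Kcnk9, an acid-sensitive K2P pore, lay between 5.42 and 24.9 CPM in SynSURF crude and had no count in sucrose crude, with 4, 2 and 5 counts in sucrose sorted libraries. Kcnj6, a G protein-gated inward rectifier, had 163, 2 and 6 counts in sucrose crude replicates 1 to 3 and at most 3.35 CPM in any SynSURF crude library.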
